A study of Mus musculus with 6 samples.

Results

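The 10 genes that follow, all of the S100 and annexin families, were measured in double negative T cells (DNT cells) with and without IL-33. They were chosen by name as S100a4, S100a6, S100a10, S100a11, S100a13, Anxa1, Anxa2, Anxa4, Anxa5 and Anxa6, which makes 10 of the 26128 genes listed. The T cells came from adult C57BL/6 mice, from the spleen by the labels and from spleens and lymph nodes by the methods of the study. CD4+CD25- T cells had been turned into DNT cells in culture with mature dendritic cells of DBA/2 mice and IL-2, and were sorted as CD3+NK1.1-CD4-CD8-. All 6 libraries came from such cells after 48 h on anti-CD3/CD28 beads, 3 of them without IL-33 (control) and 3 with 50 ng/ml IL-33. No source used here tells if replicates were separate mice, conversions or wells, so the p values measure only the spread between these libraries, which may be technical. Since the cells had been made in culture, they stand for converted DNT cells and not for those found in a mouse.

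S100 proteins are small calcium sensors with EF-hand motifs that mostly work as dimers, changing shape when calcium binds and then docking to target proteins. Annexins are another family of calcium sensors, which bind phospholipids with negative charge, such as phosphatidylserine, at membranes when calcium rises. The families meet in complexes such as that of S100A10 with annexin A2, which organises membrane and cytoskeleton at the cell surface. In T cells, genes of both families are known to be transcribed more in effector and memory cells than in naive cells.

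The libraries held 20256342 to 22336050 counts each, and 3 counts, taken as the limit of detection, came to 0.135 to 0.148 CPM (reads counted on a gene, scaled to a common library size by edgeR's TMM). The intervals given for counts below cover counting error only. Markers of T cells summed to 2971 to 3075 CPM in control and 3053 to 3153 CPM with IL-33, and all 7 were tested. Cd4 stood at 0.730 to 1.08 CPM in control and 0.225 to 0.511 CPM with IL-33. Cd8a, in contrast, stood at 535 to 561 CPM in control and 393 to 410.4 CPM with IL-33 although the gate took cells without CD8 on their surface. Cd8b1 stood at 8.12 to 11.4 CPM and 14.04 to 18.1 CPM. The log2 fold changes were -1.31 for Cd4 (adjusted p = 0.023 in edgeR), -0.45 for Cd8a (adjusted p = 2.4e-26) and 0.75 for Cd8b1 (adjusted p = 6.2e-08). Dendritic and myeloid markers summed to 126 to 131 CPM in control and 106 to 115 CPM with IL-33, with Lyz2, Adgre1 and Flt3 at 8 counts or fewer in every library. Of this list Itgax fell from 54.6 ± 2.07 to 26.0 ± 1.59 CPM (SD, n = 3 each, log2 fold change -1.07, adjusted p = 4.3e-28 in edgeR) and Cd74 fell too (-0.58, adjusted p = 0.0054), while H2-Ab1 (0.29, adjusted p = 0.0012) and Cd68 (0.19, adjusted p = 0.026) rose. Its other tested genes, Xcr1 (0.11, adjusted p = 0.52 in edgeR) and Zbtb46 (0.043, adjusted p = 0.91), did not reach an adjusted p under 0.05. Neutrophil markers summed to 5.61 to 7.07 CPM and 4.79 to 6.75 CPM, B cell markers to 4.79 to 5.70 CPM and 5.35 to 6.35 CPM, and mast cell and basophil markers to 14.9 to 19.9 CPM and 10.2 to 13.6 CPM. Of the mast cell and basophil markers tested, Cpa3 fell (log2 fold change -0.62, adjusted p = 8.3e-05 in edgeR) and Mcpt8 had -0.43 (adjusted p = 0.056). NK cell markers, most of it Eomes, summed to 405 to 408 CPM and 373 to 393 CPM. Among them Klrb1c, the gene of NK1.1, stood at 30.5 to 35.0 CPM in control although the gate took cells without NK1.1. With IL-33 it stood at 24.5 to 26.8 CPM (log2 fold change -0.39, adjusted p = 7.1e-06 in edgeR). Stromal and epithelial markers, most of it Pecam1, summed to 189.96 to 210.4 CPM and 207 to 225 CPM. The part of these shifts in the results below was not tested, and in bulk RNA fewer cells of a type and less RNA per cell cannot be told apart.

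Of the 9 S100 and annexin genes that passed the filter on low counts and were tested, 8 were higher with IL-33 and 0 were lower. The rises were small. The log2 fold changes of the 9 genes ran from 0.08 for S100a13 to 0.49 for Anxa4, with a median of 0.31, beside a median of -0.000628 over all 14671 genes tested (edgeR's quasi-likelihood test, Benjamini-Hochberg adjustment, adjusted p under 0.05). Over all genes tested, 27.5% passed this threshold, 13.6% higher and 13.9% lower, and the median absolute log2 fold change was 0.152. Those shares include genes with far fewer counts, for which small changes are harder to call. The share among genes of like level was not computed. None of the 9 genes also reached a fold change of 1.5, the second threshold of the study, which 4.87% of all genes tested did, 2.47% higher and 2.39% lower. The count past both thresholds was likewise 0 with DESeq2 and limma-voom, and 8 of the 9 had an unadjusted p under 0.05 in edgeR. In 7 of the 9 every IL-33 library stood above every control library, beside 19.4% of all genes tested (19.5% had every IL-33 library below). S100a4 was left out of this fit by the filter on low counts. Together the 10 genes took 0.186% to 0.199% of all counts in control and 0.228% to 0.234% with IL-33, and the ratio of the group means of their summed CPM was 1.21.

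**Figure D1:**
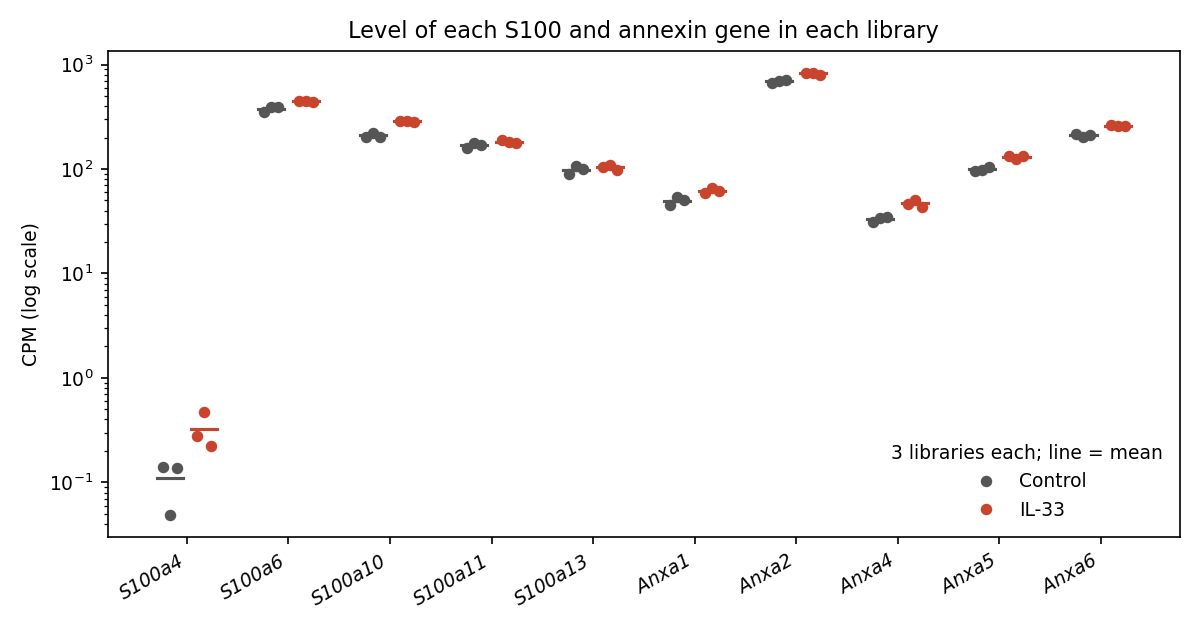
CPM of each of the 10 S100 and annexin genes in the 3 control and 3 IL-33 libraries, 1 point per library with the group mean as a line. The IL-33 points lie above all control points for 8 of the 10 genes, S100a4 among them at a few counts, and overlap them for S100a11 and S100a13.

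S100a10 and Anxa2 encode the partners in the complex named above, annexin A2 being the calcium-dependent membrane binder and S100A10 an S100 protein that is held in its active shape without calcium. S100a10 (ENSMUSG00000041959, chr3:93555080-93564643, plus strand, GRCm38) had 203, 222 and 204 CPM in the control libraries and 285, 286 and 284 CPM in the IL-33 libraries. The groups lay far apart, and the IL-33 libraries were nearly equal. The group means were 209 ± 10.8 and 285 ± 0.940 CPM (SD, n = 3 each), with a log2 fold change of 0.45 (SE 0.033, 95% interval 0.38 to 0.51, adjusted p = 8.4e-22 in edgeR). This p ranked 72nd of the 14671 genes tested, while 14.9% of them had a larger absolute change.

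Anxa2 (ENSMUSG00000032231, chr9:69453620-69491795, plus strand) was the most counted of the 10 genes. It had 666, 701 and 711 CPM in control and 832, 827 and 802 CPM with IL-33. Each IL-33 library again exceeded each control library, by a smaller factor than for S100a10. Mean levels were 693 ± 23.8 and 820.4 ± 16.5 CPM (SD, n = 3 each), and the log2 fold change was 0.24 (SE 0.026, 95% interval 0.19 to 0.30, adjusted p = 8.6e-14 in edgeR). The antisense gene Gm16144 covers 98 exonic bases of Anxa2 on the other strand and held 148 counts in all, against 97021 for Anxa2.

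Since S100a10 rose more than Anxa2, their ratio shifted. In CPM per kb of exon, the ratio of S100a10 to Anxa2 was 0.937, 0.974 and 0.882 in control and 1.06, 1.07 and 1.09 with IL-33. The ratio lay under 1 in every control library and over 1 in every IL-33 library, a position that rests on the exon lengths used, since the ratio of the counts alone ran from 0.286 to 0.355. The mean was 0.931 ± 0.0463 in control and 1.07 ± 0.0190 with IL-33 (SD, n = 3 each). The mean log2 ratio differed by 0.20, with p = 0.1 in a two-sided exact permutation test, which is the smallest p that 3 libraries against 3 can give. Ahnak, a giant scaffold protein that binds this complex at the plasma membrane, was higher too, at 1622 ± 28.4 CPM in control and 1848 ± 12.6 CPM with IL-33 (SD, n = 3 each, log2 fold change 0.19, adjusted p = 3.0e-12 in edgeR).

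The other 4 annexins had lower levels and rose by similar or larger factors. Anxa4 (ENSMUSG00000029994, chr6:86736840-86793584, minus strand) encodes a membrane-binding annexin best known from epithelia. It had 31.0, 33.9 and 34.8 CPM in control and 46.1, 50.5 and 43.7 CPM with IL-33. The lowest IL-33 library was well above the highest control library. At 33.2 ± 1.94 and 46.8 ± 3.44 CPM (SD, n = 3 each), its log2 fold change of 0.49 was the largest of the 9 genes tested (SE 0.064, 95% interval 0.37 to 0.62, adjusted p = 2.6e-10 in edgeR). The fold change had an interval of 1.29 to 1.54, which spans that of 1.5 set as the threshold.

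Anxa5 (ENSMUSG00000027712, chr3:36448923-36475894, minus strand) encodes annexin A5, which binds exposed phosphatidylserine and is used as a dye for dying cells. The transcript was at 96.3, 98.6 and 104 CPM in control and at 133, 126 and 133 CPM with IL-33. These groups did not overlap, and both were narrow. The means were 99.7 ± 4.17 and 130.5 ± 4.21 CPM (SD, n = 3 each), a log2 fold change of 0.39 (SE 0.040, 95% interval 0.31 to 0.47, adjusted p = 3.3e-14 in edgeR).

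Anxa6 (ENSMUSG00000018340, chr11:54979108-55033445, minus strand) encodes an annexin with a doubled core, which takes part in endosome traffic and membrane repair. Its levels were 215, 203 and 212 CPM in control and 264, 259 and 257 CPM with IL-33. All IL-33 libraries were higher. The means were 210.2 ± 6.23 and 260.3 ± 3.56 CPM (SD, n = 3 each), with a log2 fold change of 0.31 (SE 0.033, 95% interval 0.24 to 0.37, adjusted p = 1.2e-13 in edgeR).

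Anxa1 (ENSMUSG00000024659, chr19:20373428-20390944, minus strand) encodes annexin A1, a mediator that limits inflammation through formyl peptide receptors. It had 45.4, 53.6 and 50.2 CPM in control and 58.3, 65.1 and 61.2 CPM with IL-33. The groups did not overlap, but the gap between them was smaller than the range within control. The means were 49.7 ± 4.11 and 61.5 ± 3.41 CPM (SD, n = 3 each), with a log2 fold change of 0.31 (SE 0.055, 95% interval 0.20 to 0.42, adjusted p = 3.5e-06 in edgeR).

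**Figure D2:**
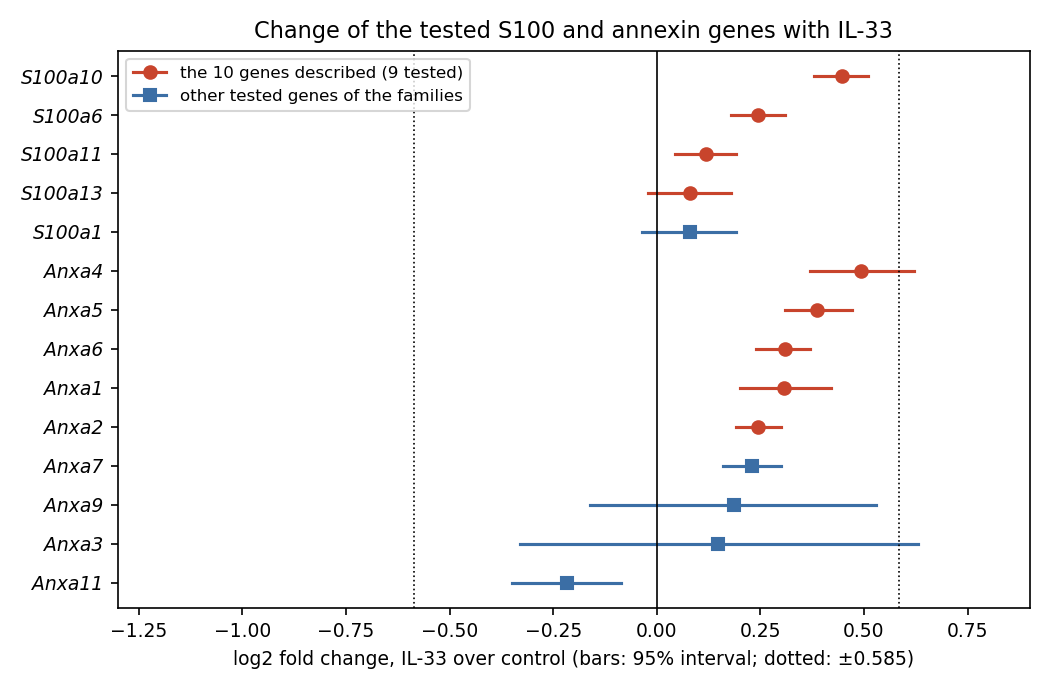
Log2 fold change with IL-33 and its 95% interval for each tested S100 and annexin gene, with the 9 tested genes described here as red circles and the other tested genes of the families as blue squares. All red circles lie right of 0 and left of the dotted line at a fold change of 1.5, and Anxa11 is the 1 gene of the families that lay left of 0.

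Among the S100 genes, S100a6 rose as well. It encodes calcyclin, an S100 protein first found through its transcription in growing cells. S100a6 (ENSMUSG00000001025, chr3:90612882-90624181, plus strand) had 348, 391 and 389.9 CPM in control and 451, 450.4 and 436 CPM with IL-33. Control replicate 1 was the low library of its group, and all IL-33 libraries were higher than all control libraries. The means were 376 ± 24.8 and 446 ± 8.49 CPM (SD, n = 3 each), with a log2 fold change of 0.25 (SE 0.033, 95% interval 0.18 to 0.31, adjusted p = 5.3e-08 in edgeR).

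S100a11 and S100a13 moved least. S100a11 (ENSMUSG00000027907, chr3:93520488-93526287, plus strand) encodes an S100 protein that partners annexin A1 and has a part in membrane repair. It had 157, 179 and 169 CPM in control and 189, 182 and 176 CPM with IL-33. The groups overlapped, since IL-33 replicate 3 was lower than Control replicate 2. Means of 168 ± 10.9 and 183 ± 6.45 CPM (SD, n = 3 each) gave a log2 fold change of 0.12 (SE 0.038, 95% interval 0.043 to 0.19, adjusted p = 0.013 in edgeR). The call was lost with DESeq2 (adjusted p = 0.051), without Control replicate 1 (log2 fold change 0.07, adjusted p = 0.194 in edgeR) and without IL-33 replicate 1 (0.09, adjusted p = 0.115). Processed pseudogenes share 41.1% of its 50-base words, and their counts came to 5.41% (Gm7665) and 2.12% (Gm12854) of those of S100a11. How reads that match several of them were counted is unknown here, so its level is uncertain by an unknown amount.

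S100a13 (ENSMUSG00000042312, chr3:90514435-90524581, plus strand) encodes an S100 protein that helps to release proteins without a signal peptide, such as interleukin 1 alpha. Its values were 88.8, 106 and 99.0 CPM in control and 105, 108 and 97.5 CPM with IL-33. The groups overlapped over most of their range. With 97.9 ± 8.64 and 103 ± 5.41 CPM (SD, n = 3 each), the log2 fold change was 0.079 (SE 0.050, 95% interval -0.022 to 0.18, adjusted p = 0.26 in edgeR). Without Control replicate 2 it was 0.14 with an adjusted p of 0.0266 in edgeR. A rise larger than the upper bound of that interval was not seen, whereas a smaller one could not be told from none. S100a1, which lies 42 bases away on the other strand, had the same log2 fold change of 0.079 (adjusted p = 0.33 in edgeR).

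S100a4 stood apart from the rest by its level. It encodes metastasin, also called fibroblast-specific protein, and lies at chr3:90603771-90606045 on the plus strand (ENSMUSG00000001020). It had 3, 1 and 3 counts in the control libraries and 6, 10 and 5 counts in the IL-33 libraries. All control libraries were at or under the limit of 3 counts and all IL-33 libraries above it. The sums of 7 and 21 counts gave a ratio of 2.94 per library size, with an exact 95% interval of 1.21 to 8.19 that covers counting error only. With no filter on low counts, edgeR gave a log2 fold change of 1.52 with an adjusted p of 0.315, and DESeq2 gave 1.57 with an unadjusted p of 0.121, so no change was shown at this depth. Gm42674, a protein-coding gene of the annotation that is not among the genes listed, covers 302 of the 584 exonic bases of S100a4 on the same strand. How reads on both were counted is not given in the sources used here, and the level of S100a4 is uncertain for that reason.

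S100a4 and S100a6 lie 6.8 kb apart, with S100a5 between them. They belong to a group of 12 S100a genes within 185 kb (chr3:90511034-90695721), of which S100a1, S100a13 and S100a6 were counted well enough to be tested and 9 were not. S100a8, known from myeloid cells, had 1 count in all 6 libraries together. S100a10 and S100a11 lie further along chromosome 3, 28.8 kb from each other. S100a4 and S100a6 lie close and differ far in counts (7 against 23870 over the control libraries). Whether the overlap with Gm42674 lowered the counts of S100a4 is unknown. The sequences that lead up to the starts of S100a4 and S100a6 are shown, read 5′ to 3′ from RefSeq on GRCm38.p6. S100a4 is at chr3:90603520-90603769 and S100a6 at chr3:90612644-90612881, both on the plus strand, with TATAAA in capitals.
S100a4: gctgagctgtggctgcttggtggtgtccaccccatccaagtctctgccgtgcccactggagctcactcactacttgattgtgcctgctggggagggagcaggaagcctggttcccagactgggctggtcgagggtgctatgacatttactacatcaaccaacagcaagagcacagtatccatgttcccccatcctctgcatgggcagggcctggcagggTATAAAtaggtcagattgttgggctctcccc
S100a6: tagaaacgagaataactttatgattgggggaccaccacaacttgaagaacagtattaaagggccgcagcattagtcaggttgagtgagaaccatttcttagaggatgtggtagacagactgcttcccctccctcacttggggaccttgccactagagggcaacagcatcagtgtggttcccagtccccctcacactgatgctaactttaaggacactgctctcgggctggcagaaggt
The S100a4 stretch holds TATAAA 31 bases before the RefSeq start, and the window of S100a6 holds none. Over the 8 S100 and annexin genes with a window, TATAAA occurred in 3. The others were Anxa1 (32 bases before the RefSeq start) and Anxa2 (17 bases before it), both far above S100a4 in counts. The matches of Anxa1 and Anxa2 lie past the GENCODE start, inside the annotated gene. TATAAA was chosen after these sequences had been seen, and 13.6% of 32851 mouse promoter windows of the same length hold it on either strand. That is a share of windows and not of genes. A match is a description of the letters and not a measurement of binding.

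**Figure D3:**
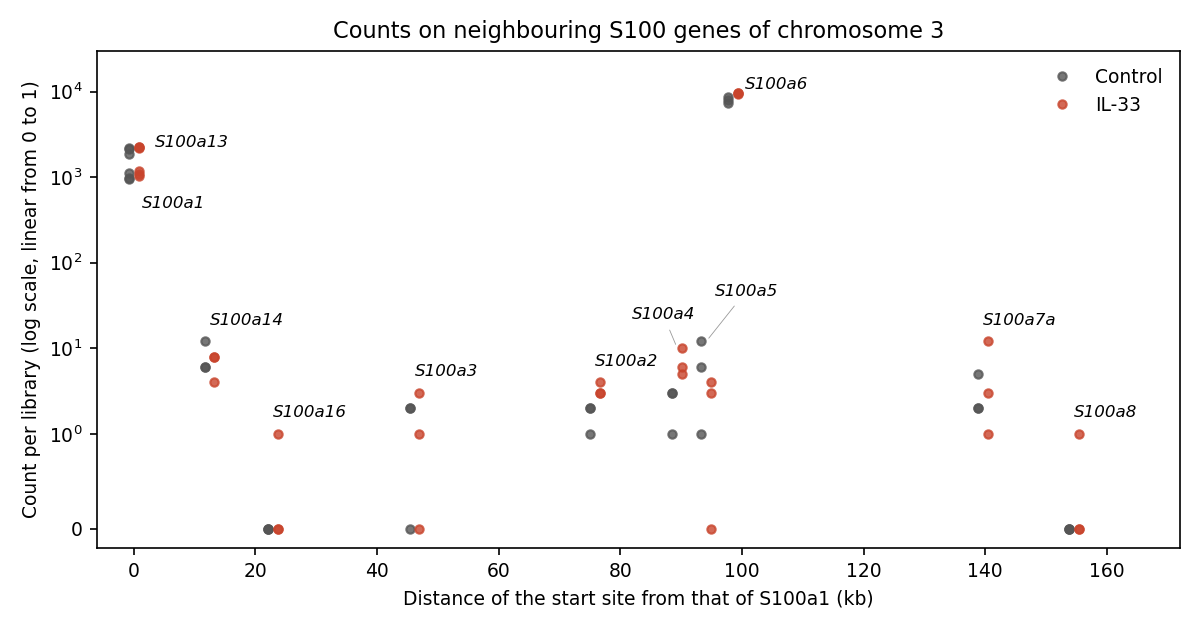
Counts per library on the S100a genes that lie together on chromosome 3, against the distance of each start site from that of S100a1 in kb, with 1 point per library on a log scale that is linear from 0 to 1. S100a1, S100a13 and S100a6 stand at 962 counts or above in all libraries, and the genes between and beyond them stay at 12 counts or fewer.

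Levels of different genes were compared per kb of exon. In control, S100a11 was highest at 329 ± 21.2 CPM per kb, followed by S100a6 at 275 ± 18.2 (SD, n = 3 each). Anxa2 and S100a10 came next at 186 ± 6.38 and 173 ± 8.92 CPM per kb, and S100a13 at 137 ± 12.1. Anxa6 had 71.7 ± 2.13, Anxa5 56.1 ± 2.34, Anxa1 17.1 ± 1.41 and Anxa4 7.15 ± 0.417 CPM per kb. S100a4 closed the order at 0.187 ± 0.0890 CPM per kb, a level that the overlap with Gm42674 leaves uncertain. The S100 genes apart from S100a4 thus stood with Anxa2 above the other annexins. S100a11 exceeded 99.2% of all genes tested, at a level that reads shared with its pseudogenes leave uncertain. In this order only Anxa2 and S100a10 overlapped in their control libraries. With IL-33 the pair changed places without overlap, S100a10 at 235 ± 0.776 and Anxa2 at 219.9 ± 4.41 CPM per kb, and no other place in the order changed. Exons of all isoforms were counted into the length, so genes with long rare exons are set too low. The lengths were 0.511 kb for S100a11, 1.367 kb for S100a6, 1.212 kb for S100a10 and 3.731 kb for Anxa2. The order, with S100a11 first, rests on these lengths.

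Leaving out each library in turn left 7 of the 9 tested genes higher at an adjusted p under 0.05 in every case, the exceptions being S100a11 and S100a13. Control replicate 1 had the lowest CPM of its group for 8 of the 9 genes. Without it, the log2 fold change of S100a6 was 0.19 and that of Anxa1 0.25, beside 0.25 and 0.31 with all libraries. Anxa4 ranged from 0.44 to 0.54 and S100a10 from 0.42 to 0.49 over the 6 libraries left out.

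**Figure D4:**
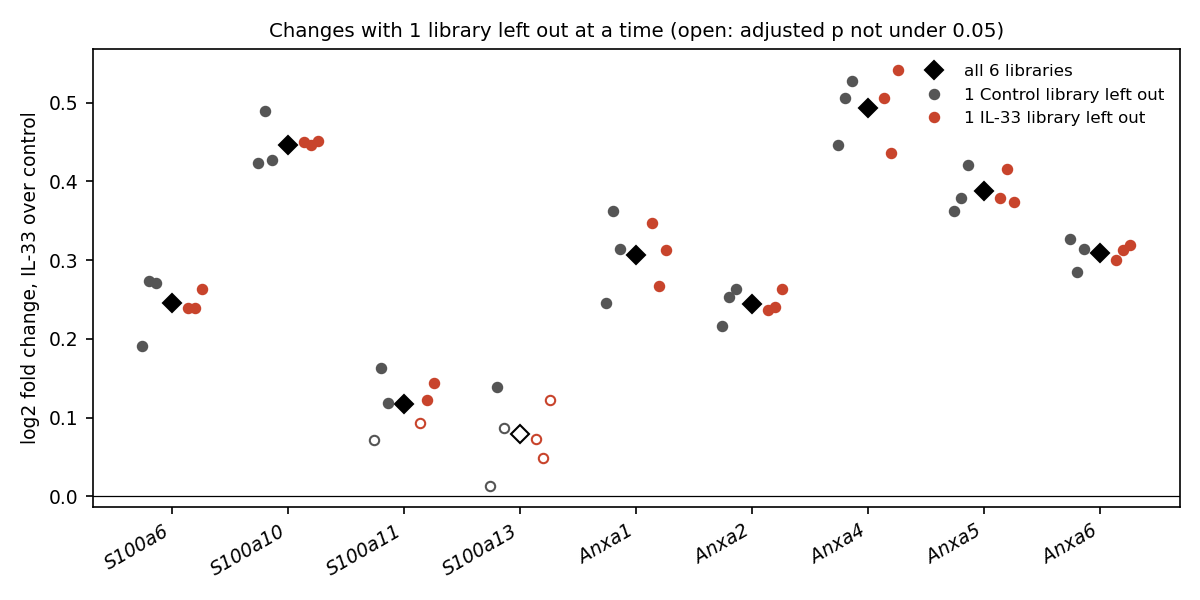
Log2 fold change with IL-33 of the 9 tested genes with all 6 libraries (black diamonds) and with 1 control or 1 IL-33 library left out (grey or red points), open where the adjusted p was not under 0.05. Points of S100a11 and S100a13 lie nearest to 0 and hold all open symbols.

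The other annexins did not share a direction. Anxa7, which promotes membrane fusion, rose from 142 ± 5.23 to 167 ± 3.29 CPM (SD, n = 3 each, log2 fold change 0.23, adjusted p = 2.9e-07 in edgeR). Anxa11, an annexin that tethers RNA granules to lysosomes, fell from 38.9 ± 3.44 to 33.5 ± 1.46 CPM (-0.22, adjusted p = 0.0076). Anxa3 (0.15, adjusted p = 0.70) and Anxa9 (0.19, adjusted p = 0.47) did not pass, both with group means under 5 CPM. Antisense Anxa11os overlaps 113 exonic bases of Anxa11 and held 93 counts against 4642.

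Genes that work with S100 proteins and annexins were read from lists chosen by their function. For each list below, the shares over all genes tested were 13.6% higher and 13.9% lower at an adjusted p under 0.05. Of 11 tested partners and receptors, Ahnak rose and Plau fell, with a median log2 fold change of 0.02. Plau, which encodes urokinase, an activator of plasminogen, went from 2.88 ± 0.511 to 1.45 ± 0.185 CPM (SD, n = 3 each, -0.98, adjusted p = 0.0013 in edgeR). Of 12 tested genes listed for the exposure and flipping of phosphatidylserine, a lipid that annexins bind, 4 were higher and 3 lower, with a median of -0.01. Atp8b4, of the flippase family, rose from 326 ± 14.5 to 417 ± 9.16 CPM (0.35, adjusted p = 3.0e-18), and Plscr3, of the scramblase family, from 8.43 ± 0.719 to 10.6 ± 0.176 CPM (0.33, adjusted p = 0.037). The flippase gene Atp11a fell (-0.24, adjusted p = 3.0e-06), as did the scramblase family gene Plscr1 (-0.23, adjusted p = 1.3e-05).

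Of 12 tested membrane repair and calpain genes, 4 were higher, with a median of 0.06. Gca, the penta-EF-hand protein grancalcin, went from 2.24 ± 0.0862 to 4.32 ± 0.411 CPM (SD, n = 3 each, 0.95, adjusted p = 1.1e-04 in edgeR). Dysf, which encodes the repair protein dysferlin, went from 1.73 ± 0.101 to 2.74 ± 0.934 CPM (0.66, adjusted p = 0.038), both at low levels. Capn2, the catalytic subunit of a calpain, rose by a log2 fold change of 0.18 (adjusted p = 4.8e-06) and Sri, the calcium sensor sorcin, by 0.13 (adjusted p = 0.0026). Antisense or opposite genes share exonic bases with Plscr3, Gca, Dysf and Capn2, with 8 counts (Tnk1), 31 (Kcnh7), 17 (Gm15475) and 7 (Gm37885) against 1218, 421, 287 and 27542. Calm2 and Calm3, which encode the general EF-hand sensor calmodulin, went the other way. Calm2 fell (-0.14, adjusted p = 4.0e-04 in edgeR), as did Calm3 (-0.11, adjusted p = 0.0040).

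Effector memory genes often named beside S100 and annexin genes were split, 5 higher and 5 lower of 11 tested, with a median of -0.11. Vim, which encodes the filament protein vimentin, rose from 334 ± 19.9 to 547 ± 11.9 CPM (SD, n = 3 each, 0.71, adjusted p = 1.7e-28 in edgeR). The galectin genes Lgals3 (0.24, adjusted p = 3.3e-15) and Lgals1 (0.23, adjusted p = 4.2e-10) rose by about as much as Anxa2 and S100a6. Crip1, which encodes a small LIM protein, fell (-0.21, adjusted p = 0.0044). The difference between the S100 and annexin genes and these lists was not tested.

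**Figure D5:**
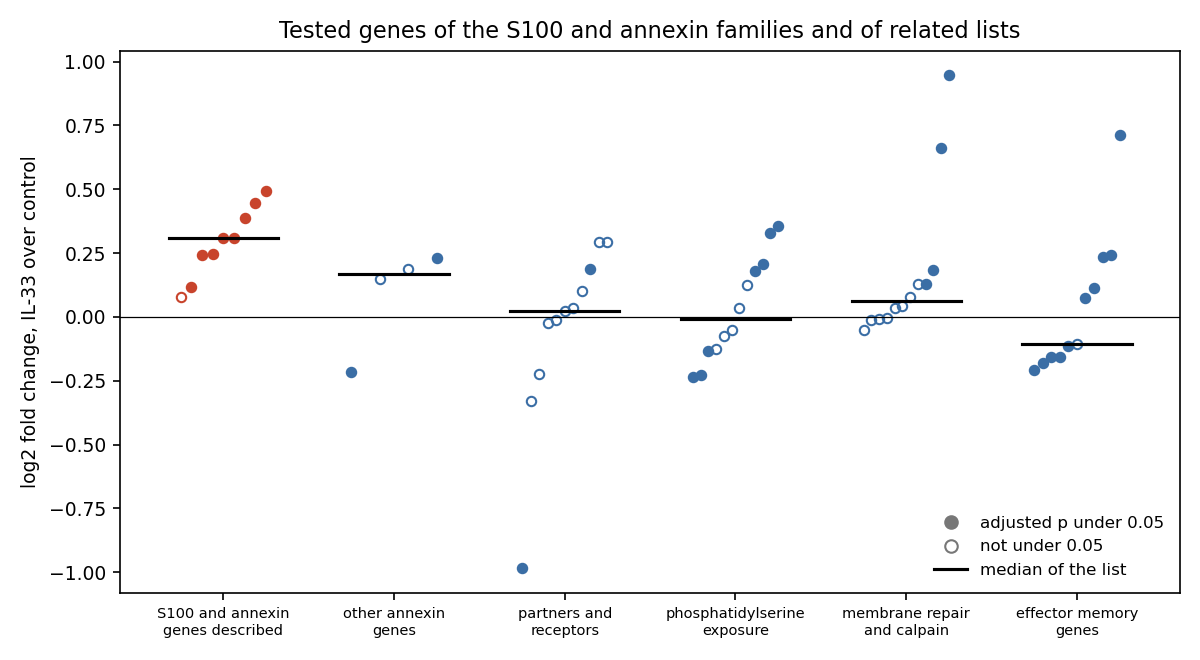
Log2 fold changes with IL-33 of tested genes by list, 1 point per gene, filled at an adjusted p under 0.05, with the median of each list as a bar. The S100 and annexin genes described all lie above 0 around a median of 0.31, while the 5 other lists hold genes on both sides of 0.

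The genes around the S100 and annexin genes gave no common direction. Of 10 other tested genes within 50 kb, 1 was higher and 2 were lower at an adjusted p under 0.05, with a median of 0.02. Over all genes tested, 13.6% were higher and 13.9% lower. The neighbours below are named after their values were seen. Gmcl1 beside Anxa4 had 0.25 (adjusted p = 0.0039 in edgeR), Ilf2 and Chtop beside S100a13 had -0.20 (adjusted p = 0.0026) and -0.13 (adjusted p = 0.0013). 1810062G17Rik, 42 bases from Anxa5 on the other strand, had 0.36 (adjusted p = 0.47).

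Promoter windows of 300 bases, from 250 before to 50 after a RefSeq start, were at hand for 8 of the 10 genes, not for S100a10 and Anxa6. The AP-1 motif TGANTCA (its reverse complement is the same motif) occurred in 2 of the 8, beside 7.81% of all windows. The STAT motif TTCNNNGAA occurred in 0 of 8, beside 8.30%, and the NF-kB consensus on either strand in 1 of 8, beside 4.51%. These shares are of windows and the counts are of genes, and a gene with several windows, such as Anxa4, has more chances to match. The windows with such a match are shown because AP-1 and NF-kB are known to act downstream of the IL-33 receptor and of T cell stimulation. They are given 5′ to 3′ on the strand of the gene, cut where the earlier of the RefSeq and GENCODE starts begins, with AP-1 and NF-kB matches in capitals. S100a11 is at chr3:93520246-93520487 (plus strand), Anxa2 at chr9:69453433-69453619 (plus strand) and Anxa4 at chr6:86793585-86793834 (minus strand).
S100a11: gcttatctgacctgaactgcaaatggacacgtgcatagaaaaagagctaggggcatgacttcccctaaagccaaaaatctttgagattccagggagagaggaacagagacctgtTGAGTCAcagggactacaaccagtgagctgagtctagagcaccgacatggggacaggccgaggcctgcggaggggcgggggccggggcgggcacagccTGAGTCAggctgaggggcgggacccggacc
Anxa2: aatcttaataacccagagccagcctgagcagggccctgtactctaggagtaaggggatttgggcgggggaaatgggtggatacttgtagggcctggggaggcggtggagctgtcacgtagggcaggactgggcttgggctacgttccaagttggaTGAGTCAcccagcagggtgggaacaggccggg
Anxa4: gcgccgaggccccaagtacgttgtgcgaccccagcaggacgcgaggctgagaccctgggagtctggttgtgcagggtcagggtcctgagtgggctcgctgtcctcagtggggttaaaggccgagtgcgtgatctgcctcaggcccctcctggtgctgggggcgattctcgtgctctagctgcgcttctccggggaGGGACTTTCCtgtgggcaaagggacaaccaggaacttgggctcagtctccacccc
Counted from the RefSeq start, which for S100a11 and Anxa2 lies beyond the end of the printed stretch, the matches begin 136 and 38 bases before it in S100a11, 95 in Anxa2 and 55 in Anxa4. Another RefSeq window of Anxa4 (chr6:86775065-86775364) holds none of these motifs. Neither factor was measured at these windows.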

How the data were processed

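RNA-seq was analysed in 6 libraries, 3 per group, grouped by their labels. The counts that the authors deposited are whole numbers of reads on each gene and were not normalized. The authors also deposited 1 column of mean signal, which was not used. The submitters' processing notes name Bowtie 0.12.2 and the build mm8. Which program counted the reads, on which annotation and with what use of strand, was not given in the sources here, so reads of genes on opposite strands cannot be told apart. The library kit is TruSeq in the labels and NEBNext Ultra in the paper. Ensembl identifiers name the genes. Symbols were found for 26072 and entries in GENCODE M21 (GRCm38) for 26086, the source of positions and exon lengths given here.

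Genes were filtered with filterByExpr (minimum count 10, minimum total count 15), which left 14671 and set aside 0.110% of counts. The main test was the quasi-likelihood test of edgeR (TMM scaling, robust fit, two-sided, no covariates), and p values were adjusted after Benjamini and Hochberg across those genes. Means and SDs are of CPM. Thresholds were an adjusted p of 0.05 and, where said, a fold change of 1.5. R 4.3.3, edgeR 4.0.16, limma 3.58.1 and DESeq2 1.42.0 were used. Every pair of replicates differed by more than sampling noise.

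The S100 and annexin genes and all lists were chosen with earlier results of these data known. Named were the 10 genes, other tested genes of the families and, of each list, up to 4 called genes of largest absolute change with a mean of at least 1 CPM. Cd4, Cd8a, Cd8b1, the values of Klrb1c, Xcr1, Zbtb46, Cpa3 and Mcpt8, and the neighbouring genes were added after their values were seen. Promoter sequences are from RefSeq (GRCm38.p6), and proteins were not analysed here. Some genes of the lists are not reported here.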

Additional observations from a re-analysis of the deposited data

How the results depend on the processing

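Over 12 alternatives for each of the 9 tested genes, 104 of 108 values had the same sign and the same call at an adjusted p of 0.05. The exceptions were 3 losses of S100a11 and 1 gain of S100a13, given above, and none reversed. Of the S100 and annexin genes, 8 passed the adjusted p with all libraries, 7 with DESeq2 and 7 to 9 with 1 library left out. Past both thresholds were 714 genes in all, 501 with DESeq2, 621 to 719 with 1 library left out, 113 when tested against the fold threshold and 4036 by the adjusted p alone. With the replicate number as a block, 666 genes were past both thresholds, 0 of them among the S100 and annexin genes, of which 8 passed the adjusted p alone. No pairing by number was seen. Deviations of same-numbered libraries correlated at 0.00109, -0.00884 and 0.0111, and not every library correlated best with its own number. Such values cannot tell if the libraries were paired in the experiment. The log2 difference of the ratio of S100a10 to Anxa2 ran from 0.16 to 0.24 with 1 library left out. S100a4, at a few counts, was left out by the filter and did not pass when tested without it.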
